A study of Mus musculus with 7 samples.

Results

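Plcd4, Zfp142, Bcs1l, Rnf25, Stk36, Ttll4, Cyp27a1 and Prkag3 are 8 consecutive genes of mouse chromosome 1, and they were taken by name from 5 deposited tables that list 103 genes each. They were chosen by their contact with an enhancer region in the inversion Inv4, as the tables give it, so the Inv4 values are given as a description and support nothing. In the Inv4 table they held the 8 highest log2 ratios to WT. Just inside that limit, Rnf25 and Stk36 had a log2 ratio of 3.85, and just outside it, Usp37 and Rqcd1 had 3.46.

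The study mapped contacts between DNA loci by capture Hi-C, in which crosslinked chromatin is cut, religated and enriched by probes for a chosen region, here 10 Mb around Epha4. The samples were limb buds at E11.5 (titled Distal, with forelimbs and hindlimbs of 10 embryos pooled per condition by the design text) and 1 culture of embryonic stem cells (ESCs). The limb bud libraries were WT, the CRISPR/Cas9 inversions Inv1, Inv2, Inv3 and Inv4, and Inv1DelCTCF, which is Inv1 with a deletion named after the DNA-binding protein CTCF; the ESC library carried Inv1. There was 1 library for each of these 7 conditions, so every difference is between libraries and has no replicate check. Contact maps covered all 7 libraries, and the gene tables used here covered WT and Inv1 to Inv4. The genotype field gives only WT or mutant and the cell type field reads G4 ESC for every library, so inversions and tissue were read from the titles and the design text. Hi-C holds no expression values, so the labelled tissue could not be checked against marker genes. The labels do not state whether mutant embryos were homozygous.

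Chromosomes fold into domains within which loci meet more often than across their borders, and an enhancer acts on a promoter that it can meet. Epha4 encodes an ephrin receptor tyrosine kinase that guides limb innervation and patterning, and its limb enhancers lie in a large gene-poor domain. An inversion turns a piece of chromosome around, so that sequence from one end is placed beside genes that lie past the other end. The 8 genes carry out general and tissue-restricted functions and are not a pathway: lipid and energy metabolism, mitochondrial assembly, ubiquitin and tubulin modification, kinase signalling and DNA binding.

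The sequences upstream of these genes are shown because the pairs with identical contact values are neighbours that start back to back. Zfp142 and Bcs1l start 261 bases apart on opposite strands, and Rnf25 and Stk36 start 58 bases apart on opposite strands, by the RefSeq promoter table for GRCm38.p6. The bases between the starts of each pair are printed on the plus strand, and for Cyp27a1 and Prkag3, the genes with the highest Inv4 levels, the 250 bases before the start are printed on the gene's own strand. The positions are chr1:74588029-74588288 (plus) for Zfp142 and Bcs1l, chr1:74601398-74601454 (plus) for Rnf25 and Stk36, chr1:74713285-74713534 (plus) for Cyp27a1 and chr1:74748956-74749205 (minus) for Prkag3. Capitals mark matches on either strand to any of 7 motifs. These were the TATA box, searched as TATAAA, the CCAAT box by its own letters, the GC box as GGGCGG, and the E-box as CACGTG. Parts of the CTCF motif were searched as CCCTC and, in a longer form, as GCCCCCTG, and a nuclear receptor site as TGACCTTT. The maps are in mm9, so these positions were not laid over them.
Zfp142-Bcs1l: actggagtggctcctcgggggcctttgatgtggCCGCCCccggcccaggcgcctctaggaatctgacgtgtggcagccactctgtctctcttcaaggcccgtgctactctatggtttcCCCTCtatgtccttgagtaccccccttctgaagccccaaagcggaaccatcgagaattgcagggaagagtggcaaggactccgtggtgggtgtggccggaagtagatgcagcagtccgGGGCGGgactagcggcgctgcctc
Rnf25-Stk36: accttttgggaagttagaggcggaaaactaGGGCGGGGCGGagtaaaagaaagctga
Cyp27a1: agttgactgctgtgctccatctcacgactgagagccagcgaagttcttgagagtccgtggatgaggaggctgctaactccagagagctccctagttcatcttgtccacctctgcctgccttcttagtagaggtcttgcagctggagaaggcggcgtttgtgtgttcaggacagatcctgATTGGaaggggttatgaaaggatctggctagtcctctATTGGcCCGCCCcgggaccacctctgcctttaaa
Prkag3: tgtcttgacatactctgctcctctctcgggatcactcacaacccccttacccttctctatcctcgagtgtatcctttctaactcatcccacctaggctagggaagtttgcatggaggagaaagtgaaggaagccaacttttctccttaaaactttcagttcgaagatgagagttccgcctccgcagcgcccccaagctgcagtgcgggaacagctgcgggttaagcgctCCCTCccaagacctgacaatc

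The 2 GC boxes between Rnf25 and Stk36 overlap in the printed run, and those between Zfp142 and Bcs1l lie near either end. All 8 genes matched the promoter table, which gives 300 bases per gene, 250 before and 50 after the start. The GC box was found in 62.5% of the 8 windows, against 49.4% of the windows of 81 other genes of the tables and 35.9% of all 27025 promoters. The CCAAT box was found in 37.5%, 32.1% and 37.9% of these sets, and the short CTCF form in 75%, 72.8% and 65.0%. The TATA box, the longer CTCF form, the E-box and the nuclear receptor site were in 0 of the 8 windows in 4.94%, 7.41%, 12.3% and 0% of those of the other genes of the tables, and in 14.2%, 2.85%, 7.24% and 1.46% of all promoters. The median ratio of observed to expected CpG was 0.588 in the 8 windows, 0.627 in the other genes of the tables and 0.389 in all promoters. The windows of Zfp142 and Bcs1l share 240 bases and those of Rnf25 and Stk36 share 157, so their counts are not independent. Plcd4 had the lowest CpG ratio of the 8, at 0.132 for the start listed first.

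The tables give 1 scaled value per gene for contact between its start site and the enhancer region; how they were scaled, where that region lies and whether a value is comparable between tables were not given in the sources used here. As a yardstick of noise, the SD of the difference to WT over the 35 genes listed farthest from the inversions, at either end of a table, was 0.601 scaled units for Inv4, 0.608 for Inv3, 0.406 for Inv2 and 0.321 for Inv1. It is a spread between genes, not between replicates. Steps between inversions were set against the same SD of their own difference. This was 0.475 for Inv1 and Inv2, 0.550 for Inv2 and Inv3, 0.610 for Inv1 and Inv3 and 0.808 for Inv3 and Inv4. The far genes had low levels, with medians from 0.016 in Inv2 to 0.451 in Inv4. The spread at the higher levels of the 8 genes was not measured and may be larger. All differences to WT share the same WT table. Zfp142 and Bcs1l had the same value in every table, as did Rnf25 and Stk36, so the 8 genes give 6 distinct measurements.

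Prkag3, which encodes a gamma subunit of the AMP-activated kinase of skeletal muscle, had a scaled contact of 33.9 in Inv4, 10.5 in Inv3, 2.07 in Inv2 and 1.61 in Inv1, against 1.01 in WT. It was the highest of all 103 genes in Inv4 and ranked 22 in WT. The steps from WT to Inv1 and from Inv1 to Inv2 were within 2 far-gene SDs, and those from Inv2 to Inv3 and from Inv3 to Inv4 were beyond them. Set directly against WT, Inv1 was 1.87 and Inv2 2.62 far-gene SDs higher. Its log2 ratio to WT, computed on values plus a pseudocount of 0.5, was 4.51 in Inv4, 2.86 in Inv3, 0.77 in Inv2 and 0.48 in Inv1. In Inv1 the sign turned, to -0.14, when ratios were centred on the median of all genes. It held, at 0.16, when they were centred on the far genes.

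Cyp27a1, a mitochondrial sterol hydroxylase of bile acid synthesis, reached 25.2 in Inv4 and 6.15 in Inv3, with 1.67 in Inv2, 2.88 in Inv1 and 0.633 in WT. It was the second highest gene in Inv4, and every step in the order WT, Inv2, Inv1, Inv3, Inv4 was larger than 2 far-gene SDs. Its log2 ratios were 1.58, 0.94, 2.55 and 4.50 in Inv1 to Inv4.

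Ttll4, an enzyme that adds glutamate chains to tubulin and other proteins, reached 17.5 in Inv4, with 4.45 in Inv3, 3.91 in Inv2, 1.70 in Inv1 and 0.447 in WT. Inv2 and Inv3 did not differ beyond 2 far-gene SDs. Ttll4 had the highest Inv2 level of the 8 genes.

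Rnf25, an E3 ubiquitin ligase, and Stk36, a kinase related to the fly hedgehog pathway kinase Fused and needed for motile cilia, shared the values 13.6 in Inv4, 5.67 in Inv3, 0.917 in Inv2, 1.66 in Inv1 and 0.480 in WT. WT, Inv2 and Inv1 formed steps within 2 far-gene SDs, while Inv3 and Inv4 each stood above the level below them by more than that. Set directly against WT, Inv2 was 1.08 and Inv1 3.66 far-gene SDs higher. With the starts this close, the table cannot tell the genes of this pair apart.

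Zfp142, a zinc finger protein, and Bcs1l, a mitochondrial chaperone that inserts the iron-sulfur protein into respiratory complex III, shared 13.7 in Inv4, 0.339 in Inv3, 2.08 in Inv2 and 0.910 in Inv1, and were listed at 0 in WT. Their order differed from that of the other members: Inv3 was the lowest inversion, within 2 far-gene SDs of WT, while Inv1 was 2.83 and Inv2 5.12 far-gene SDs above it. The log2 ratio of 0.75 in Inv3 turned to -0.06 when centred on the median of all genes, and stayed at 0.75 with the far genes. No fold is given against a value listed at 0.

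Plcd4, a phosphoinositide-specific phospholipase C, reached 14.3 in Inv4 and 3.81 in Inv3, with 0.933 in Inv2, 1.31 in Inv1 and 0.233 in WT. The steps from WT to Inv2 and from Inv2 to Inv1 were within 2 far-gene SDs, and the later steps were beyond them. Set directly against WT, Inv2 was 1.72 and Inv1 3.35 far-gene SDs higher. Plcd4 lies farthest from Wnt6 in the order of the genes, and Prkag3 next to it.

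**Figure D1:**
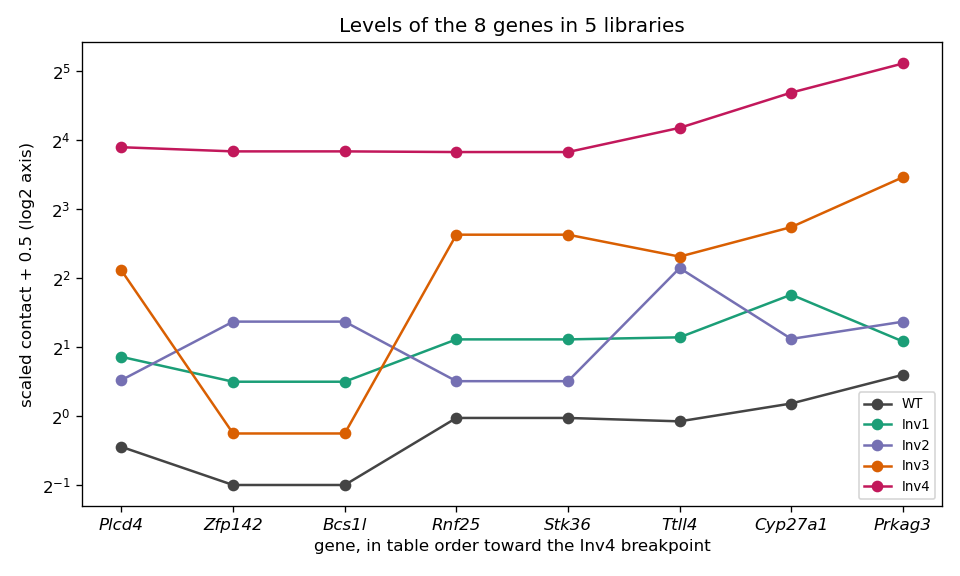
Scaled contact with the enhancer region plus 0.5, on a log2 axis, for the 8 genes in table order, with 1 point per gene and library and a line per library. All 8 Inv4 points lie above every other library, from 13.6 for Rnf25 and Stk36 to 33.9 for Prkag3, and Zfp142 and Bcs1l drop to 0.339 in Inv3.

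Across the 8 genes the median level was 14.0 in Inv4, 5.06 in Inv3, 1.87 in Inv2, 1.63 in Inv1 and 0.463 in WT, beside 1.88, 1.23, 0.438, 1.01 and 0.447 over all genes. Their median log2 ratio was 4.42 in Inv4, 2.55 in Inv3, 0.95 in Inv2 and 1.26 in Inv1, beside 1.08, 0.81, 0.0044 and 0.62 over all genes. In Inv1, 7 of the 8 genes were over 2-fold above WT, where 35.9% of all genes were, and 0 of 8 after centring; 0 of 8 were over 4-fold, against 20.4%. In Inv2, 3 of 8 passed 2-fold against 19.4% of all genes; these were Zfp142, Bcs1l and Ttll4, which also passed 4-fold, against 11.7%. In Inv3, 6 of 8 passed against 45.6%, all but Zfp142 and Bcs1l, and the 6 were also over 4-fold, where 17.5% of all genes were. In Inv4 all 8 passed 2-fold and 4-fold, against 52.4% and 24.3%, which the choice of the genes fixes. In Inv1, Inv2, Inv3 and Inv4 0 of 8 were over 2-fold below WT, against 3.88%, 16.5%, 10.7% and 6.8% of all genes.

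As a share of the summed contact of all genes in a table, which does not depend on its scale, the 8 genes held 40.3% in Inv4, 13.4% in Inv3, 8.59% in Inv2, 3.74% in Inv1 and 3.80% in WT. On this measure Inv1 did not stand above WT. The Inv2, Inv3 and Inv4 tables held 25, 13 and 12 negative values, counted as 0 in these shares, and there were 0 in those of WT and Inv1. A share free of the scale does not remove this difference between the tables. The ratio of Prkag3 to Epha4 within a table is also free of the scale: the values were 27.0 in Inv4, 5.25 in Inv3, 1.35 in Inv2, 3.31 in Inv1 and 0.132 in WT. Epha4 itself ranged from 0.487 to 1.995 across the inversions, against 7.68 in WT.

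In Inv4 the levels fell off along the gene order from Prkag3 at 33.9 to Cyp27a1 at 25.2 and Ttll4 at 17.5. Farther out, Stk36, Rnf25, Bcs1l, Zfp142 and Plcd4 were nearly level, between 13.6 and 14.3. Prkag3 was 2.36-fold above Plcd4 in Inv4, 2.75-fold in Inv3, 2.22-fold in Inv2, 1.23-fold in Inv1 and 4.33-fold in WT. Past Plcd4, Rqcd1 and Usp37, a deubiquitinase, were both at 11.9 in Inv4, and Vil1, which bundles actin in microvilli, Mir26b and Ctdsp1 were at 5.63, 4.20 and 4.37. On the other side the level broke off: Wnt6, next to Prkag3 and encoding a secreted Wnt ligand, was at 0.545 in Inv4, Wnt10a at 0.766, Cdk5r2 at 1.81, Fev at -0.066 and Cryba2 at 2.76. In Inv3 the same first 4 genes were at 15.4, 16.6, 20.05 and 36.4, above Prkag3 at 10.5, and Cryba2 was at 1.03. The break thus lay between Prkag3 and Wnt6 in Inv4 and between Fev and Cryba2 in Inv3.

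**Figure D2:**
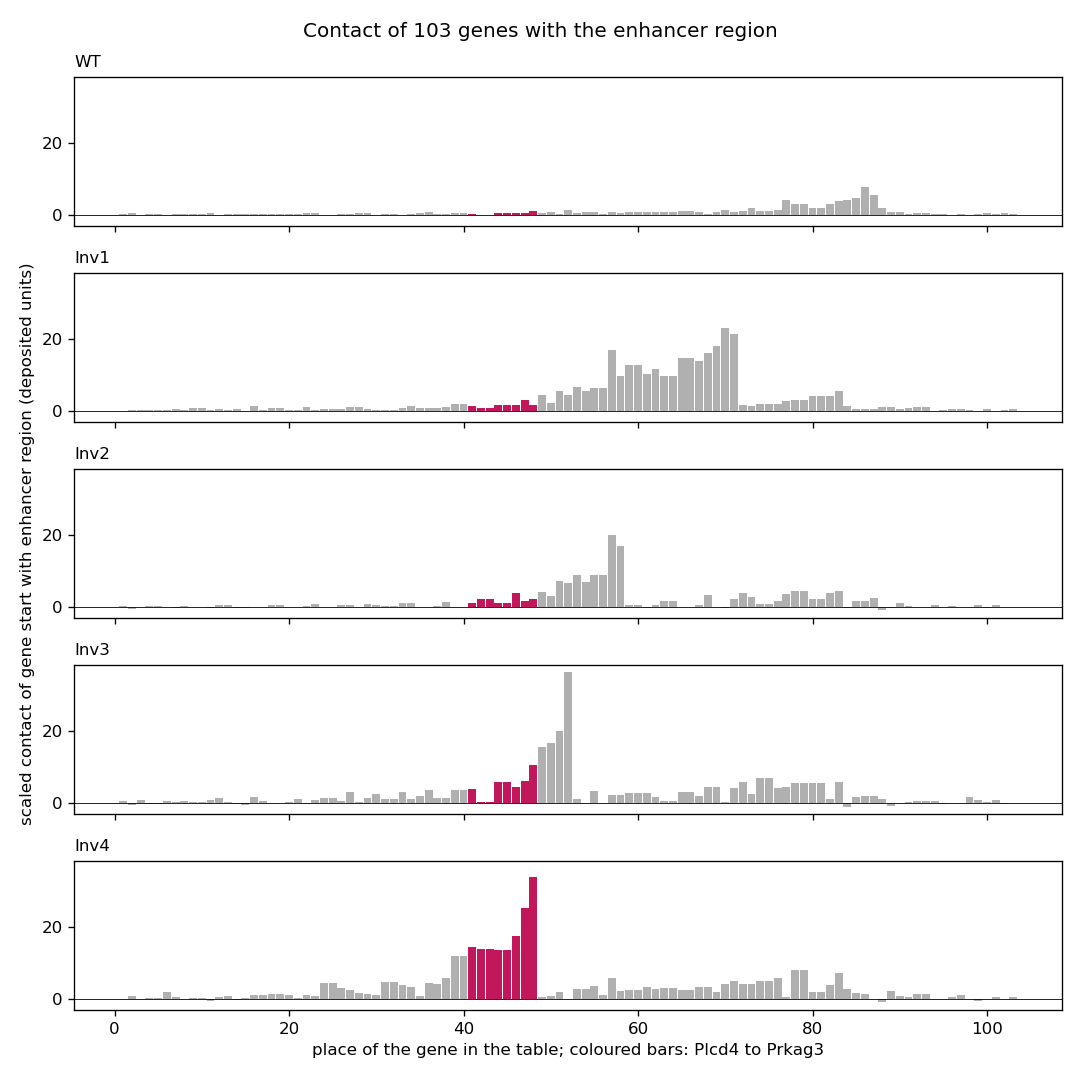
Scaled contact with the enhancer region, on 1 shared linear axis, for all 103 genes in table order, with 1 panel per library and the 8 genes in colour. The coloured bars rise toward Prkag3 at 33.9 in Inv4 and stop there, while in Inv3 the highest bars are those of the next genes, up to Fev at 36.4.

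By Euclidean distance over the 4 log2 ratios from the medians of the 8 genes, the nearest other genes were Tmbim1 at 1.53, Vil1 at 1.65, Tns1 and Rufy4 at 1.68, Cxcr1 at 2.29 and Usp37 at 2.46, with Rqcd1 equal to Usp37. The 8 genes themselves lay between 0.0937 for Plcd4 and 2.34 for Zfp142 and Bcs1l. Tmbim1 reached 3.78 in Inv4 and 2.89 in Inv3, with 1.10 in Inv2, 0.806 in Inv1 and 0 in WT. Its pattern was the nearest over 4 ratios from 5 tables, but its Inv4 level was below that of every one of the 8.

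The tables hold other genes with related functions, and their Inv4 levels were below those of the 8, which the choice of the genes fixes. Of 4 bile acid and lipid genes (Cyp27a1, Gpbar1, Mogat1, Sgpp2), 3 were over 2-fold above WT and 0 below; Gpbar1, the bile acid receptor, was at 0 in WT, 2.32 in Inv3 and 1.13 in Inv4. Of the 2 hedgehog genes both passed: Ihh, a hedgehog ligand of growing cartilage, was at 0.260 in WT and 1.03 in Inv4, against 13.6 for Stk36. All 3 mitochondrial genes passed, Abcb6 at 2.68 and Bcs1l and Cyp27a1 as above, and all 4 ubiquitin genes passed, with Zfand2b at 3.23 and Ankzf1 at 2.93. Of 6 genes listed for kinases and their partners 3 were above and 1 below, and the latter was Epha4. The list includes Stk11ip, which encodes a protein that binds a kinase and is not itself a kinase. Both tubulin genes passed, Tuba4a at 3.35, and of 4 phosphoinositide and actin genes 3 passed, Plcd4, Tns1 at 4.36 and Vil1 at 5.63. Arpc2, a subunit of the actin-nucleating Arp2/3 complex, was at 1.28 and did not pass. These counts stand beside the 52.4% of all genes past 2-fold in Inv4 and include the 8 genes. After centring on the median of all genes, the log2 ratio turned sign in 5 of these genes: Ihh to -0.072, Arpc2 to -0.12, Stk16 to -0.19, Mogat1 to -0.66 and Stk11ip to -0.80. Of the listed genes outside the 8, only Usp37 at 2.37, Tns1 at 2.196 and Vil1 at 2.13 were then still over 2-fold above WT.

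The maps give the same chromosomes at 10 kb and add the Inv1DelCTCF and ESC libraries, which the choice of genes did not use. The tables do not state which bins hold the genes. They are placed here only by order: the break between Prkag3 and Wnt6 puts them just beyond the Inv4 breakpoint, at 74.79 Mb of chromosome 1 (mm9). The 200 kb from 74.59 to 74.79 Mb are therefore described as the stretch beyond the breakpoint, which is a reading of the gene order and not a measured position of each gene. The Inv4 map comes from the library whose values chose the genes, and the stretch was placed by the Inv4 breakpoint. Its contact with the moved part in Inv4 is therefore also a description and supports nothing. The moved Epha4 part is the sequence from 75.62 Mb, after the WT domain border, to 75.90 Mb, the shared right end of the inversions. The inverted segments began at 74.79 Mb in Inv4, 74.93 Mb in Inv3, 75.13 Mb in Inv2 and about 75.29 Mb in Inv1.

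The maps of WT, Inv1, Inv1DelCTCF and Inv1 ESC held 5155260, 3903609, 3997408 and 4305911 read pairs, recovered as whole numbers from the balanced values. In the deposited maps of Inv2, Inv3 and Inv4 a weighted WT map had been taken away (weights 0.423, 0.369 and 0.334). By median bin sums, the part taken away was 49.3%, 49.4% and 49.1% of the signal before subtraction. These maps held negative values at 28.8% to 31.3% of listed bin pairs. Their values have no counting interval and are those left after the subtraction.

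Of the contacts that the 200 kb stretch made outside itself, 31.6% were with the moved Epha4 part in Inv4, 10.7% in Inv3, 4.93% in Inv2, 4.73% in Inv1 (95% counting interval 4.54 to 4.91, 3057 read pairs) and 1.19% in WT (1.11 to 1.27, 1055 read pairs). Inv1DelCTCF had 4.34% (4.17 to 4.52, 2741 read pairs) and Inv1 ESC 5.19% (5.02 to 5.36, 4324 read pairs). The intervals cover counting error alone, and read pairs without molecular identifiers are not independent molecules. WT was the lowest, Inv1, Inv2, Inv1DelCTCF and the ESCs lay close to each other, and Inv4 stood far above Inv3.

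The inversions bring the moved part closer to the stretch, to a median distance along the chromosome of 250 kb in Inv4 and 380 kb in Inv3, from 1070 kb in WT. Contact was therefore also set against the mean at the same distance in the same map. This ratio of observed to expected was 1.53 in Inv4, 0.686 in Inv3, 0.478 in Inv2, 0.616 in Inv1 and 0.250 in WT. Inv1 ESC had 0.692 and Inv1DelCTCF 0.554. Inv4, the library whose values chose the genes, was the only one of the 7 maps above 1. It was so too with the median in place of the mean at each distance and with all bins kept.

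**Figure D3:**
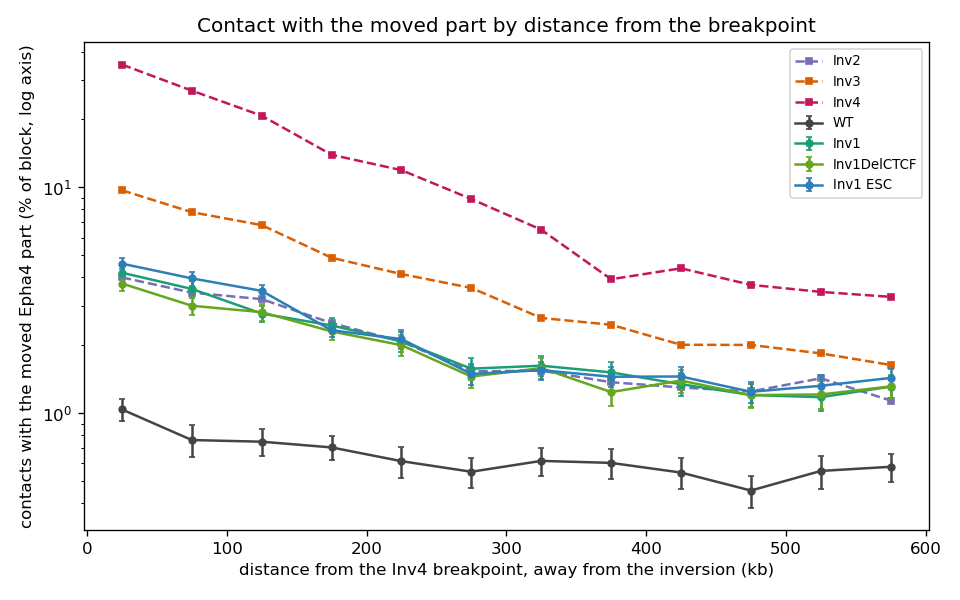
Contacts with the moved Epha4 part, as a percent of the contacts that each 50 kb block made outside itself, on a log axis. Blocks are placed by distance from the Inv4 breakpoint. There is 1 line per library, with bars of 95% counting intervals where read pairs were recovered. Inv4 falls from 35.0% in the nearest block to 3.28% in the farthest and stays above Inv3 throughout, and WT stays at or below 1.04%.

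In blocks of 50 kb (a size chosen after the data were seen), the share was taken of the contacts that each block made outside itself. Its base thus differs from that of the 200 kb stretch. In Inv4 this share fell from 35.0% next to the breakpoint to 26.8%, 20.8% and 14.0% in the following blocks, and was 3.28% at 550 to 600 kb. Inv3 fell from 9.72% to 4.88% over the same 200 kb. Over these 4 blocks the ratio of observed to expected in Inv4 was 1.59, 1.68, 1.52 and 1.21, and it dropped below 1 from 250 kb outward, with 0.981 at 250 to 300 kb. In Inv3 it was 0.755 in the nearest block and lower in every other.

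With the Inv1 deletion, the stretch had 0.381 percentage points less contact with the moved part than in Inv1, by a difference of -0.381 with a 95% counting interval from -0.637 to -0.126. In blocks, Inv1DelCTCF had 3.75% against 4.19% in Inv1 nearest the breakpoint and 2.99% against 3.55% in the next, 2.80% against 2.76% at 100 to 150 kb and 2.30% against 2.45% at 150 to 200 kb, so it was lower in 3 of the 4 blocks. The ESC library was higher than Inv1 by 0.464 points (0.214 to 0.713). Both differences are a small part of the 3.53 points (3.33 to 3.73) by which Inv1 exceeded WT, and how far libraries of 1 condition would differ is not known from these data.

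Other partners of the stretch differed in the ESC library as well. Contact with the adjoining 140 kb, which by gene order carry Wnt6 to Fev, was 16.1% in Inv1 ESC and between 18.1% and 20.9% in WT, Inv1, Inv2, Inv3 and Inv1DelCTCF, with 19.5% in Inv1. The ESC value was below Inv1 by a difference of -3.39 points (-3.82 to -2.97). In Inv4, where these 140 kb sit at the far end of the inverted segment, the value was 0.825%. Contact with the 330 kb of the Dnpep to Slc4a3 sequence, inverted together with the moved part, was 5.39% in WT and stood at 9.52% in Inv3 and 13.3% in Inv4, with 5.04% in Inv2. As a plain share it was below WT in the maps with the Inv1 allele, at 3.82% in Inv1 (3.67 to 3.98), 3.32% in Inv1DelCTCF (3.17 to 3.47) and 4.29% in Inv1 ESC (4.15 to 4.43), against 5.22 to 5.56 for the WT interval. The inversions change the distance to this sequence. Relative to the mean at the same distance, Inv1 had 0.632, Inv1DelCTCF 0.533 and Inv1 ESC 0.806, against 0.654 in WT. Inv2, Inv3 and Inv4 had 0.670, 0.966 and 1.23. On this measure the ESC value was above WT. Contact with the part of the Epha4 domain that stayed in place was 4.77% in WT and 4.15% in Inv4, and between 4.32% and 5.11% in the other 5 maps.

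**Figure D4:**
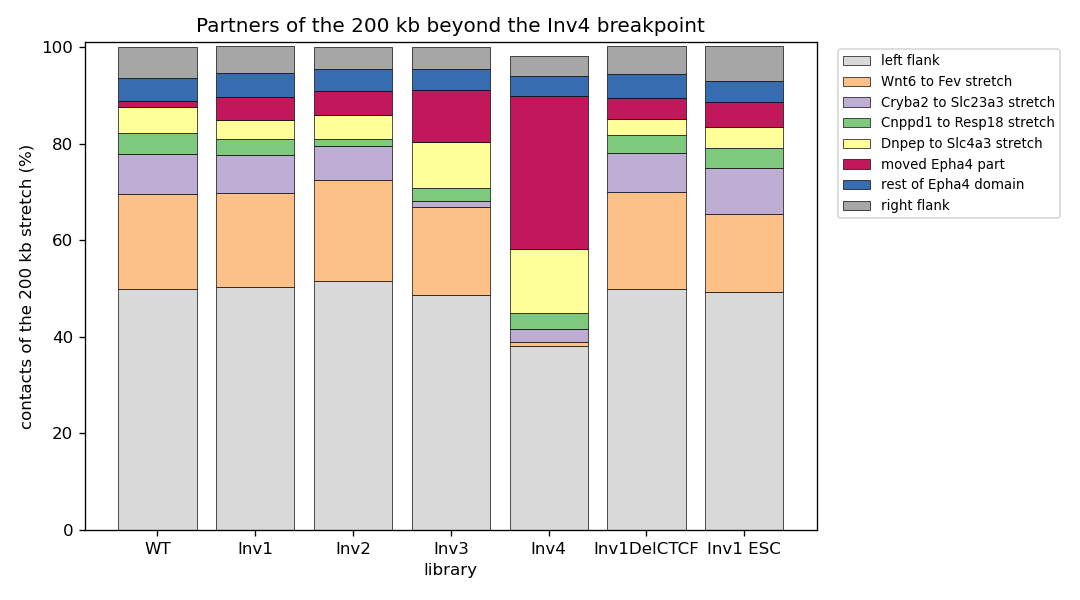
Partners of the 200 kb stretch as stacked percents of its contacts outside itself, with 1 bar per library and regions named by gene order. The moved Epha4 part grows from 1.19% in WT to 31.6% in Inv4, and the Wnt6 to Fev stretch shrinks from 19.6% to 0.825%; bars sum to 98.1% in Inv4 and up to 100.3% in Inv1, because bins at the joins fall in no region or in more than 1.

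Within the moved part, contact in Inv4 was uneven. The 40 kb next to the WT domain border, which lie farthest from the join in Inv4, made up 6.33% of the stretch's contacts, and the following 40 kb blocks 4.72%, 3.59%, 3.69%, 4.24%, 4.04% and 4.99%. The block at the border was thus the highest of these blocks although it was the most distant. It had 3.39 times the contact expected for the distance, against 0.979 times in the block at the join. In Inv4 a bin at the join fell in no region, and the regions sum to 98.1%. Its contacts are missing from the block at the join, so the order of these 2 blocks by plain share is not settled. These shares pool the 200 kb stretch. In its 20 kb next to the breakpoint, mean balanced contact in Inv4 was higher toward the join. The squares of 20 kb had 46.1 and 72.0 at the join end, against 22.8 and 39.1 at the border end. For the whole stretch in Inv3 the border block was again the highest, at 2.15% and 1.29 times expected. Relative to distance the border block was also the highest of the 7 blocks in Inv1, Inv2, Inv1DelCTCF and Inv1 ESC, at 0.779, 0.585, 0.621 and 0.728 times expected, against 0.562, 0.446, 0.561 and 0.656 in the block at the join. In WT it was 0.258, below the 0.306 of the block 120 to 160 kb from the border. As plain shares, in Inv1 the border block had 0.703% (SE 0.0369, counting) and the block nearest the join 0.757% (SE 0.0389). In the ESC library these were 0.622% (SE 0.0309) and 0.879% (SE 0.0371).

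**Figure D5:**
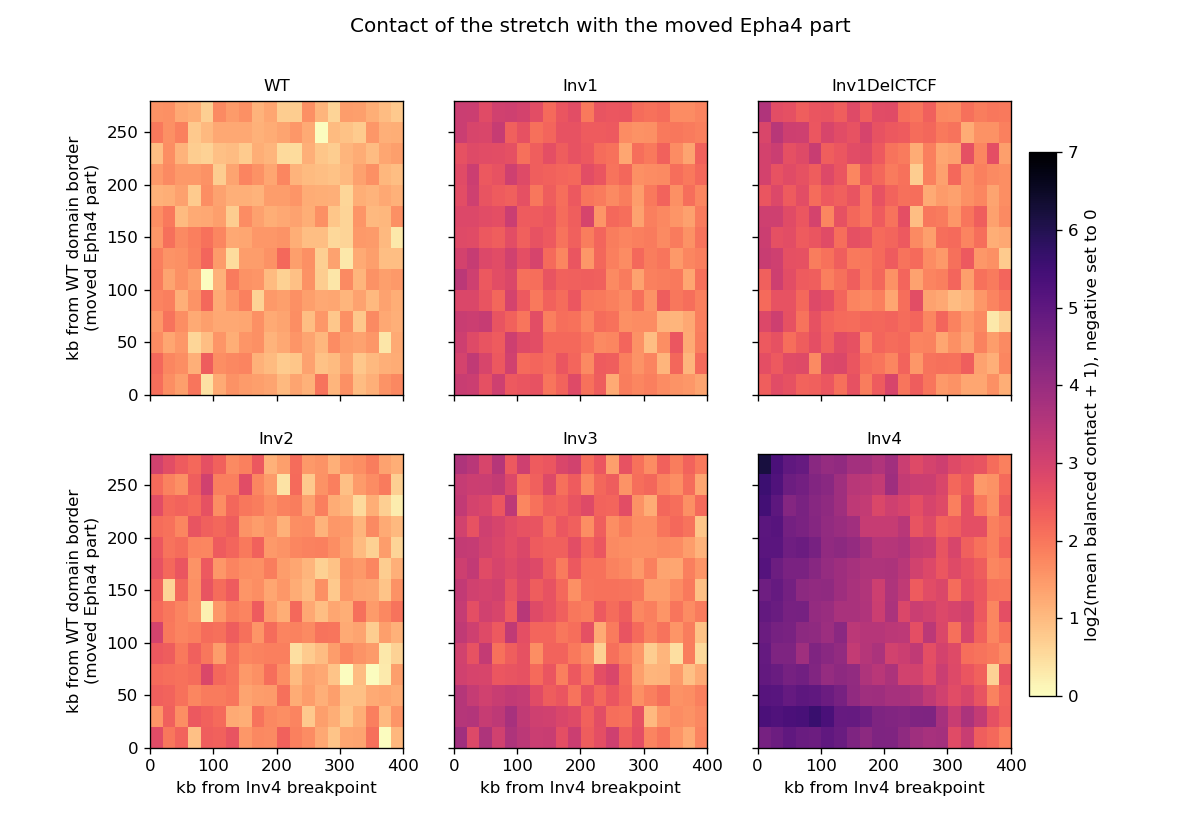
Mean balanced contact in squares of 20 kb between the sequence beyond the Inv4 breakpoint (horizontal, kb from the breakpoint) and the moved Epha4 part (vertical, kb from the WT domain border), as log2(value + 1) with negative values set to 0, in 6 limb bud maps on 1 colour scale. Inv4 is darkest near the breakpoint and along the border end of the moved part, where the block of 40 kb at the border held 6.33% of the contacts of the stretch.

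Domain boundaries were called as minima of contact across a bin in 200 kb squares with a depth of at least 0.2. A boundary at 74.81 Mb, 20 kb into the segment that Inv4 inverts, was called in WT, Inv1, Inv2, Inv3 and Inv1DelCTCF with depths of 0.442 to 0.708, and at 74.80 Mb in the ESC library with 0.468. In the rearranged Inv4 map that place holds sequence from the other end of the inversion, so it was not compared. In this map 2 boundaries were called inside the stretch, at 74.64 Mb, with a depth of 0.526, and at 74.68 Mb, with 0.551. They lie closer together than the 200 kb square, so the calls cannot tell 2 boundaries from 1 shallow trough. The boundary at 74.64 Mb was also called in the ESC library, with 0.348, and not in the other limb bud maps. Depths of Inv2 to Inv4 are those after the subtraction of WT signal.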

How the data were processed

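The 8 genes, the far genes, the function lists and the measures were chosen with earlier results of these data known. Named genes were the 8, 5 neighbours on either side, the 6 nearest patterns, Epha4 and the function lists. Libraries were grouped by their titles.

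Per the submitters' processing notes, the genome build was mm9 and Bowtie2 2.2.6 and Juicer were among the tools. The deposited gene tables hold 1 contact score per gene, with a scaling not given in the sources used here. Maps as deposited hold 1 balanced signal per pair of 10 kb bins; the Inv2, Inv3 and Inv4 maps hold a score that can be negative, since the authors subtracted a weighted WT map, as the deposited values show: 72.7% to 73.3% of their negative values lay within 1% of 1 multiple of the WT signal.

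Mutant maps are in coordinates of the rearranged chromosome, found by matching bin factors to WT read backwards. Read pairs were recovered by fitting 1 factor per bin, after which, in the 4 maps without subtraction, 100.0% of the values below 20 came within 0.1 of whole numbers. Log2 ratios set negative values to 0 and used a pseudocount of 0.5, which understates changes at low values. Observed over expected contact left out bins whose listed pairs numbered below 25% of the median. The scripts (Python 3.11.15, NumPy 2.4.6) were tested on simulated data. With 1 library per condition no test was run and no p-value is given. Alternatives were other pseudocounts, centring, a 4-fold limit, shares of the table sum, other stretch lengths and ends, and another expected value.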

Additional observations from a re-analysis of the deposited data

How the results depend on the processing

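No paired analysis was possible because each condition had 1 library, and leaving out a replicate was not possible either. The direction of the 8-gene median held under every alternative except the share of the table sum in Inv1. There the 8 genes were at 0.984 of WT against 3.52-fold on the deposited scale, and the share also depends on gains of other genes. That share gave 2.26-fold against 4.04 in Inv2, 3.52-fold against 10.9 in Inv3 and 10.6-fold against 30.3 in Inv4. The median log2 ratio was 1.96 in Inv1, 1.56 in Inv2 and 5.17 in Inv4 with a pseudocount of 0.05, and 0.28, 0.24, 0.88 and 1.90 in Inv1 to Inv4 with 5. Centred on all genes it was 0.64 in Inv1, 1.75 in Inv3 and 3.34 in Inv4, and 3 single values turned sign: Prkag3 in Inv1 to -0.14, and Zfp142 and Bcs1l in Inv3 to -0.060. Centred on the far genes, the median was 0.94, 1.24, 2.55 and 4.25 in Inv1 to Inv4, and all 32 single ratios kept their sign. Genes past the limit in Inv1 fell from 7 to 0 at 4-fold, with a pseudocount of 5 and after centring on all genes. In Inv2, 3 became 6 with a pseudocount of 0.05 and 0 with 5, and in Inv3, 6 became 1 with 5. The share of contacts with the moved part was 1.08% in WT, 4.03% in Inv1DelCTCF and 5.01% in Inv1 ESC for 100 kb, and 1.32% in WT, 26.3% in Inv4 and 4.94% in Inv1 ESC for 400 kb. Ending the stretch at the matched segment gave 5.05% in Inv1, 12.1% in Inv3, 4.60% in Inv1DelCTCF and 5.51% in Inv1 ESC. With the median at each distance, the ratio of observed to expected was 0.803 in Inv1 ESC, 0.680 in Inv1DelCTCF, 0.772 in Inv3, 0.574 in Inv2, 0.747 in Inv1 and 0.357 in WT. The cause of these shifts was not tested. The far-gene SD is not a replicate error, and depth inside the inversions of Inv2 to Inv4 was not recovered.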
